A study of Homo sapiens with 4 samples.

Results

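The proteasome genes were taken as every gene whose symbol is PSM followed by a letter from A to G and a number, matched through Ensembl gene identifiers. This gave 48 of the 60719 genes listed, and the rule itself reads only the symbol. RNA had been sequenced from anti-V5 precipitates of the human neuroblastoma cell line SK-N-AS, 24 hours after lipid transfection with a V5-tagged KIF5A construct. KIF5A encodes a motor subunit of kinesin-1, which carries cargo along microtubules. One group carried the wild-type construct (WT) and the other the mutant named d27 in the labels, with 2 precipitates of each, numbered 1 and 2. Both groups had transfected KIF5A on top of the line's own gene, and the labels give neither the promoter of the construct nor the share of cells transfected. No input or mock precipitate is used here, so more of an RNA in the precipitate and more of it in the cells cannot be told apart, and the question is only which proteasome mRNAs differed between d27 and WT precipitates.

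The proteasome degrades proteins that have been tagged with ubiquitin. Its barrel, the core particle, is built from alpha rings (PSMA genes) that form the gate and beta rings (PSMB genes) that hold the proteolytic sites. A regulatory cap sits on the barrel: its base has a ring of ATPases (PSMC genes) that unfold the substrate, and its other subunits (most PSMD genes) bind ubiquitin, remove it or hold the lid together. Alternative activators (PSME genes) can replace the cap, PSMF1 encodes the inhibitor PI31, and PSMG genes with PSMD5, PSMD9 and PSMD10 encode assembly chaperones. When proteasome activity is short, the transcription factor NRF1, encoded by NFE2L1, raises most subunit genes together through antioxidant response elements in their promoters.

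Gene counts totalled between 8142869 and 18335151 per library, the highest being d27 replicate 1. HTSeq's entries for reads not given to a gene were 47.6% and 47.3% of all entries in WT and 25.9% and 36.8% in d27, and their part in the differences below was not tested. KIF5A took between 9.03% and 14.8% of gene counts and its difference between groups missed the threshold (log2 fold change -0.20, edgeR adjusted p = 0.821, n = 2 per group). It counts transfected and endogenous transcripts alike and is no check of the construct. All 7 markers of mesenchymal-type neuroblastoma cells exceeded 1 count per 1e6 gene counts (CPM) in every library, with summed levels of 3224 and 3490 CPM in WT and 3024 and 2756 in d27. Within that sum VIM and FN1 were lower in both d27 libraries, and CD44, YAP1, SNAI2 and WWTR1 were higher in both. Of 7 adrenergic-type markers, summing to 830 and 812 CPM in WT and 730 and 581 in d27, 5 exceeded 1 CPM in every library, while DBH and TH, enzymes of noradrenaline synthesis, were at or near 0. Of 7 markers of leukocytes, epithelium, endothelium and liver, PTPRC exceeded that level in every library, at 189 and 162 CPM in WT and 100.5 and 79.5 in d27, whereas CD3E and EPCAM were at 0. CPM values here are scaled by TMM, edgeR's trimmed mean of M-values, unless called a share.

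Of the 48 proteasome genes, 46 passed the filter on low counts and were tested. PSMA8, the testis form of an alpha subunit, and PSMB11, the thymus form of a catalytic subunit, had 0 counts in all 4 libraries, which allows up to 3 counts in each, or 0.368 and 0.277 CPM in WT and 0.164 and 0.286 CPM in d27 on the scale of library totals. Among the 46 tested, 2 rose in d27 (PSMF1 and PSMB2), 2 fell (PSMD4 and PSME1) and 42 did not pass an adjusted p of 0.05. That is 8.70% of the tested members, beside 11.7% of all 14909 genes tested. In the separate directions it is 4.35% higher and 4.35% lower, beside 8.00% higher and 3.70% lower for all genes. The share of proteasome genes called was thus below that of all genes in the reported fit. It was above it with no filter on low counts (13.04% beside 9.23%), with an offset for GC content and exon length (19.6% beside 15.6%) and with a replicate block (26.1% beside 23.98%).

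**Figure D1:**
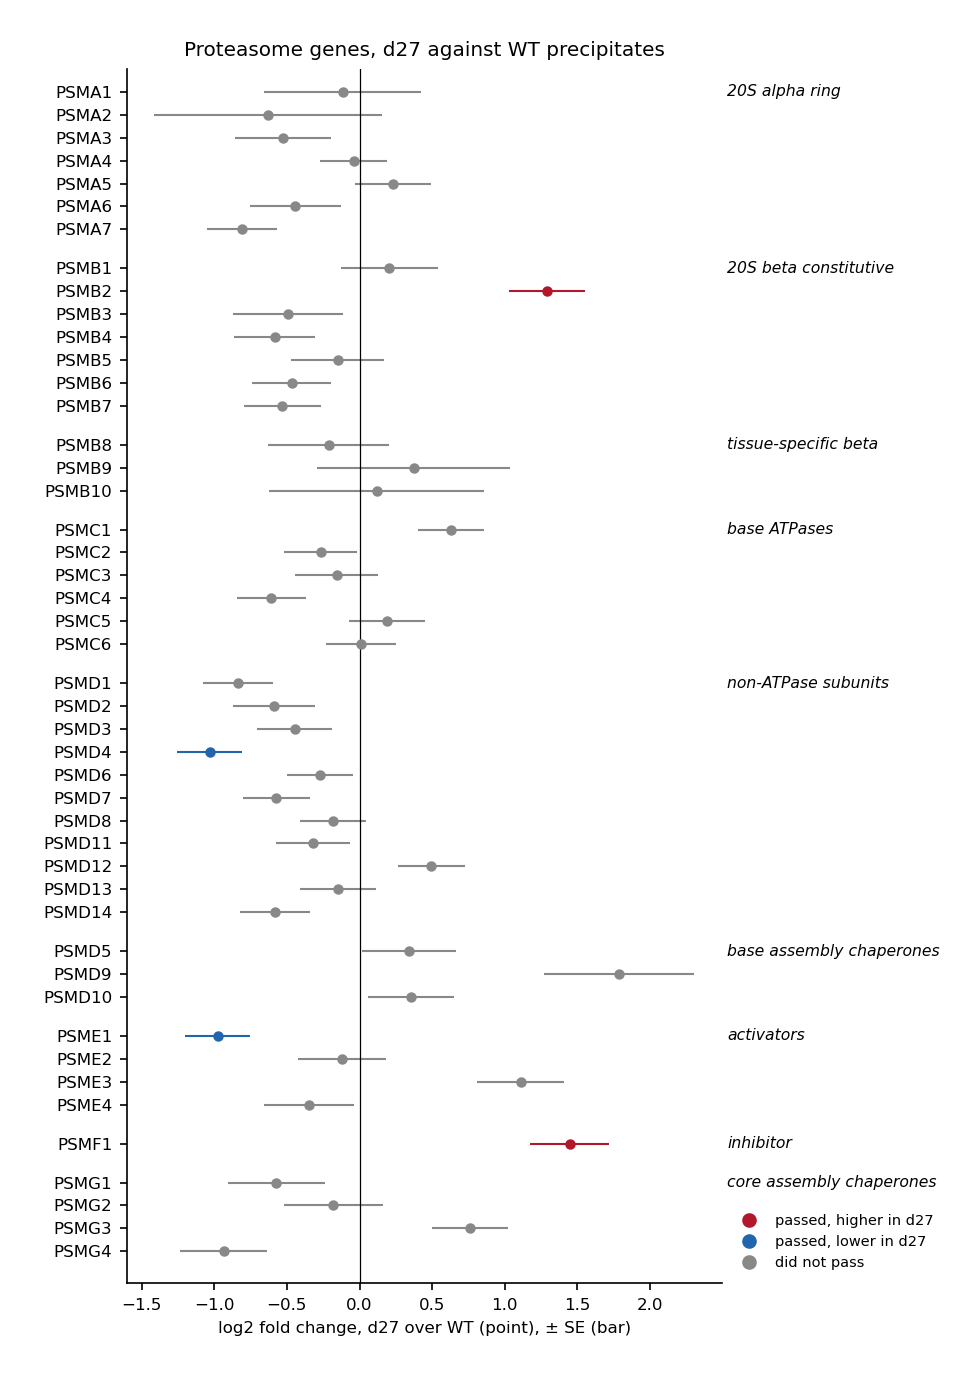
The log2 fold change of d27 over WT (x axis) is drawn for each of the 46 tested proteasome genes, grouped by role, with bars for the standard error. The middle of the points, between the quartiles, spans -0.56 to 0.20, PSMF1 and PSMB2 passed on the right, and PSMD4 and PSME1 passed on the left.

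As a group the proteasome mRNAs had a median slightly below that of all genes. The median log2 fold change of the tested members was -0.20 (quartiles -0.56 and 0.20), beside a median of -0.00043 (quartiles -0.62 and 0.64) for all tested genes. It lay below 0 in 31 members, 67.4%, beside 50.01% of all genes. The median difference of -0.20 was smaller than the spread between replicates of the members' median level, 0.33 on the log2 scale, but ranged from -0.44 without d27 replicate 2, past that spread, to -0.069 without d27 replicate 1. The medians over all genes in those fits were -0.071 and -0.053, so without d27 replicate 1 the members were nearly level with all genes. Summed over all 48 genes, the share of gene counts was 0.447% in WT replicate 1 (95% Clopper-Pearson interval 0.443% to 0.452%) and 0.361% in WT replicate 2 (0.357% to 0.364%). It was 0.358% in d27 replicate 1 (0.355% to 0.361%) and 0.405% in d27 replicate 2 (0.401% to 0.409%). These ranges overlap between the groups, and the means differed by -0.0225 percentage points (exact permutation test, two-sided, p = 0.667, n = 2 per group, where no p below 0.33 is possible). Without WT replicate 1 the difference was 0.021 and without d27 replicate 1 it was 0.0011.

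PSMF1 was the member with the lowest p. It encodes PI31, which inhibits the core particle in the test tube. In neurons PI31 is known as an adaptor for the transport of proteasomes along axons. The gene (ENSG00000125818.18, GRCh38 chromosome 20, 1113263 to 1189415, plus strand) had 75.4 and 49.8 CPM in WT and 160 and 181 CPM in d27, so both d27 libraries were above both WT libraries. The means were 62.6 ± 18.1 CPM in WT and 171 ± 14.5 in d27 (SD, n = 2 each), a 2.72-fold rise (log2 fold change 1.45 ± 0.27 SE, edgeR quasi-likelihood adjusted p = 0.0203). It passed under all 11 alternative settings tried, with log2 fold changes from 1.20 to 1.82.

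PSMB2, a structural subunit of the beta ring with no proteolytic site, was the only core particle gene that passed by edgeR. The gene (ENSG00000126067.12, chromosome 1, 35599544 to 35641844, minus strand) had 43.6 and 31.8 CPM in WT and 93.4 and 90.9 CPM in d27, again with no overlap. The mean was 37.7 ± 8.31 CPM in WT and 92.1 ± 1.73 in d27 (SD, n = 2 each), a 2.45-fold rise with a log2 fold change of 1.29 ± 0.26 SE and an edgeR adjusted p of 0.0245. Without WT replicate 2 it did not pass (log2 1.10, adjusted p = 0.0517).

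A pair of genes fell. PSMD4 encodes a ubiquitin receptor of the cap (ENSG00000159352.16, chromosome 1, 151254703 to 151267479, plus strand). It had 209 and 201 CPM in WT and 98.7 and 102 CPM in d27, means of 205 ± 5.45 and 100.1 ± 2.05 (SD, n = 2 each), with a log2 fold change of -1.03 ± 0.22 SE and an edgeR adjusted p of 0.0297. PSME1 encodes the alpha subunit of PA28, an interferon-inducible activator (ENSG00000092010.15, chromosome 14, 24136158 to 24138967, plus strand). It had 231 and 235 CPM in WT and 119 and 118 CPM in d27, with a log2 fold change of -0.98 ± 0.22 SE and an edgeR adjusted p of 0.0339. In both genes the 2 libraries of a group lay close together and far from the other group. Neither passed without d27 replicate 1 (adjusted p = 0.140 for PSMD4 and 0.159 for PSME1), without d27 replicate 2 (0.0731 and 0.110) or with library totals in place of TMM (0.0525 and 0.0578), and PSME1 did not pass without WT replicate 2 (0.0682).

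**Figure D2:**
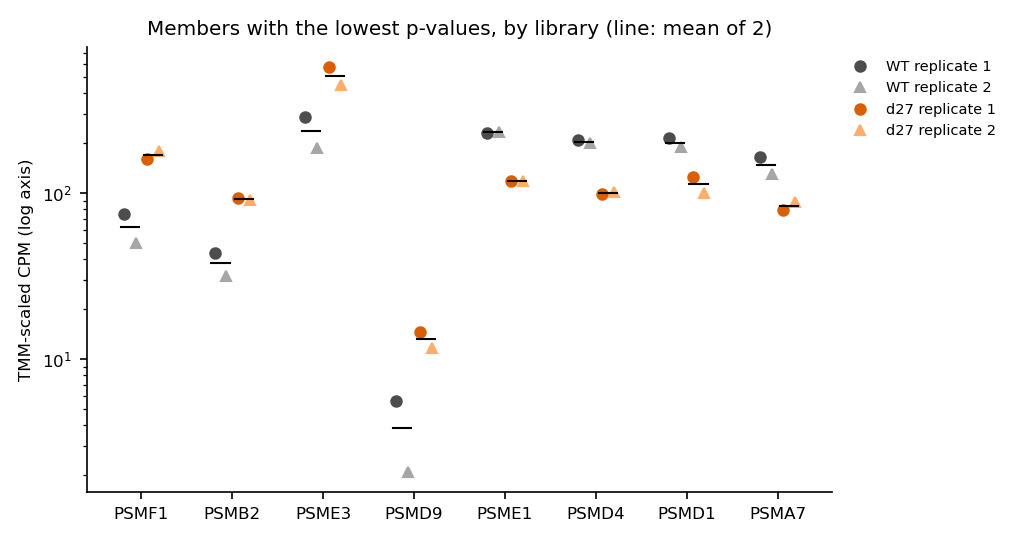
CPM scaled by TMM (log axis) in each of the 4 libraries is shown for the 8 proteasome genes with the lowest p-values, with a line at the mean of each group. In all 8 the d27 libraries lie on one side of the WT libraries, as in 61.2% of all tested genes. The 8 were chosen by p in this same comparison, so their separation is no further result. The fold was 2.72 for PSMF1 and 1.97, in the other direction, for PSME1.

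RefSeq promoter windows (GRCh38.p14, 250 bases before to 50 after the gene start) were at hand for 42 of the 48 genes, PSMD4 not among them. They were searched on both strands for the core of the antioxidant response element, TGACNNNGC, the element through which NRF1 acts on proteasome genes. It was present in 13 of the 42 windows, 31.0%, beside 13.6% of all 27305 promoters of the same length and 15.2% of the 10633 that belong to tested genes. A match is a match of letters and not a site shown to be bound. Of the called genes with a window, PSME1 held the core and PSMF1 and PSMB2 did not. RefSeq's start differs from that of GENCODE for PSMB2 and PSME1, where it lies inside the gene span given above, and the windows follow RefSeq. The site in PSME1 and the 100 bases before the start of PSMF1 show the contrast, in lower case with the core in capitals, 5′ to 3′ on the gene's strand.
PSME1, plus strand, chr14:24136098-24136126: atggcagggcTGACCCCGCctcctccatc
PSMF1, plus strand, chr20:1113163-1113262: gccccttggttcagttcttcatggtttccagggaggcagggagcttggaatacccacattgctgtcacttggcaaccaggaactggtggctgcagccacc

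The same core in 3 members that did not pass shows how the element recurs across the complex, in a beta subunit and in a pair of lid subunits.
PSMB3, plus strand, chr17:38752627-38752655: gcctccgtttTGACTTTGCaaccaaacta
PSMD3, plus strand, chr17:39980760-39980788: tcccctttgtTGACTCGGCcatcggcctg
PSMD12, minus strand, chr17:67366724-67366752: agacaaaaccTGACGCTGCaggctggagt
The 13 members with the core, all of them tested, had a median log2 fold change of -0.35, from -0.98 in PSME1 to 1.79 in PSMD9, and PSME1 was the 1 that edgeR called. The 27 tested members with a window and no core had a median of -0.16, from -0.94 to 1.45, and PSMF1 and PSMB2 were the 2 that edgeR called. The ranges of the 2 sets overlap, and members that hold the core had values on both sides of 0.

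In the alpha ring, which gates the barrel, none of 7 tested genes passed by edgeR. PSMA7, an alpha subunit, had the lowest p. It had 164 and 131 CPM in WT and 79.4 and 88.9 CPM in d27, with both d27 libraries below WT (log2 fold change -0.81 ± 0.24 SE, edgeR adjusted p = 0.0654). PSMA7 was the 1 gene of this ring with an unadjusted p under 0.05, and DESeq2 called it lower (log2 -0.80, adjusted p = 0.0283). PSMA3 had 43.8 and 26.0 CPM in WT and 21.4 and 26.97 in d27, and these overlap. PSMA5 and PSMA6, further subunits of the ring, had 47.99 and 45.6 against 47.6 and 62.3 CPM and 19.7 and 18.7 against 11.9 and 16.4 CPM, the first with overlap and the second with d27 below WT (adjusted p = 0.589 and 0.375). PSMA4 was nearly level, at 99.3 and 85.2 CPM against 94.0 and 85.5. PSMA1 and PSMA2 had few reads, at 3.52 and 8.91 against 5.21 and 6.30 CPM for PSMA1 and 5.79 and 1.35 against 2.01 and 2.60 CPM for PSMA2. In GENCODE 29, 24.7% of the exon bases of PSMA1 and 14.6% of those of PSMA2 lie in exons of another gene on the same strand, where HTSeq may set reads aside as ambiguous; its part in these low counts was not tested.

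Among the 7 constitutive beta genes only PSMB2 passed. The genes for the 3 proteolytic subunits stayed within or near the spread of the libraries. PSMB5, the chymotrypsin-like site, had 51.3 and 37.5 CPM in WT and 30.5 and 49.6 in d27, which overlap. PSMB6, the caspase-like site, had 34.1 and 28.9 against 21.6 and 24.0042 CPM, and PSMB7, the trypsin-like site, had 77.0 and 86.0 against 46.3 and 66.5 CPM. Both had d27 below WT without passing (adjusted p = 0.282 and 0.219). PSMB4, a structural subunit, showed the same order, at 70.8 and 61.4 against 36.0 and 52.3 CPM (log2 -0.59 ± 0.28 SE, adjusted p = 0.197). The remaining structural subunits, PSMB1 and PSMB3, had 33.9 and 30.8 against 26.7 and 48.01 CPM and 35.3 and 22.4 against 14.8 and 26.4 CPM, and their groups overlapped.

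Interferon induces the immunoproteasome genes, whose products replace the 3 constitutive sites. Of these genes PSMB9 and PSMB10 were low, while PSMB8 had CPM near those of the constitutive genes PSMB3 and PSMB6, which are shorter. Per kilobase of exon PSMB8 was lower, with a mean of 8.13 CPM against 20.96 for PSMB3 and 18.8 for PSMB6. With coding length these were 29.4, 40.2 and 37.9. PSMB8 had 18.9 and 33.3 CPM in WT and 15.2 and 30.0 in d27. PSMB9 had 8.39 and 2.80 against 4.01 and 10.6 CPM, and PSMB10 had 2.50 and 1.66 against 1.57 and 2.97 CPM. The groups overlapped in all 3, none passed by edgeR, none had an unadjusted p under 0.05 and DESeq2 called none, giving PSMB10 no adjusted p. PSMB8 and PSMB9 overlap on opposite strands, with 20.6% of the exon bases of PSMB8 in exons of that strand, so their counts are uncertain. In GENCODE 29, 34.8% of the exon bases of PSMB10 lie in exons of another gene on the same strand. The part of this in its low counts was not tested. Per kilobase of exon, the 3 immunoproteasome genes made up 9.80% and 12.6% of the summed level of the 6 catalytic genes in WT and 11.1% and 15.5% in d27, and these ranges overlap.

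Of the 6 ATPase genes of the base none passed by edgeR or DESeq2, and 2 had an unadjusted p under 0.05. PSMC1 had 78.6 and 74.1 CPM in WT and 113 and 123 in d27 (log2 0.63 ± 0.23 SE, edgeR adjusted p = 0.106). PSMC4 had 139 and 159 against 88.0 and 108 CPM (log2 -0.61 ± 0.24, edgeR adjusted p = 0.130). These 2 subunits of 1 ring therefore had values on opposite sides of 0. The exons of PSMC1 lie to 75.8% within exons of NRDE2 on the other strand. PSMC5 and PSMC3 had the most counts in the ring, with 222 and 215 against 203 and 295 CPM and 138 and 159 against 101 and 165 CPM, and overlapped between the groups. PSMC2 had 77.5 and 77.1 against 55.0 and 73.7 CPM (adjusted p = 0.513). PSMC6 was the most level of all members, at 53.7 and 49.0 against 50.02 and 53.5 CPM, with a log2 fold change of 0.011.

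The 11 other subunits of the cap mostly had values below 0. The log2 fold change was below 0 in 10 of 11, with a median of -0.45 that ranged from -0.63 to -0.30 over the alternatives. In 9 of the 11 both d27 libraries were below both WT libraries, and in PSMD12 both were above. Over all members the groups did not overlap in 27 of 46, 58.7%, beside 61.2% of all tested genes. PSMD4 was the 1 that passed by edgeR, and DESeq2 called PSMD4 and PSMD1 lower. PSMD1, a large scaffold of the base, had 215 and 190 CPM in WT and 126 and 100.3 in d27 (log2 -0.84 ± 0.24 SE, edgeR adjusted p = 0.0620, DESeq2 adjusted p = 0.0222). PSMD2, the other scaffold of the base and the member with the most counts after PSME3, had 433 and 558 against 274 and 384 CPM. PSMD14, the enzyme that strips ubiquitin from the substrate, had 60.7 and 58.4 against 39.5 and 40.0 CPM (adjusted p = 0.146), and PSMD7, its partner in the lid, 142 and 160 against 109 and 94.0 CPM (adjusted p = 0.138). Of the others, PSMD3, PSMD6, PSMD8 and PSMD11 also had d27 below WT, with log2 fold changes from -0.45 to -0.18 and adjusted p-values from 0.282 to 0.625, and PSMD13 overlapped (log2 -0.15). PSMD12, a lid subunit, had values on the other side, at 92.2 and 91.4 against 141 and 117 CPM (log2 0.49 ± 0.23, adjusted p = 0.193).

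The activators diverged in value. Against the fall of PSME1 stood PSME3, which encodes the nuclear activator PA28 gamma (ENSG00000131467.11, chromosome 17, 42824385 to 42843758, plus strand). It had 288 and 187 CPM in WT and 576 and 449 in d27, with no overlap, and just missed the threshold (log2 1.11 ± 0.30 SE, edgeR adjusted p = 0.0511). It passed with DESeq2 (log2 1.13, adjusted p = 0.00234), and without WT replicate 2 its log2 fold change was 0.86 (adjusted p = 0.144). PSME3 overlaps exons of BECN1 on the opposite strand. PSME2, the partner of PSME1 in PA28, had 49.2 and 41.9 CPM in WT and 32.4 and 51.6 in d27, which overlap, so the 2 genes of 1 complex did not show the same order. PSME4, the large activator PA200, had 172 and 94.7 against 107 and 102 CPM. Per kilobase of exon, PSME3 was 0.777 and 0.505 times the mean of PSME1 and PSME2 in WT and 2.95 and 2.16 times in d27. The exon lengths are 5152 bases for PSME3, 1781 for PSME1 and 3582 for PSME2, and the coding lengths 801, 750 and 762. That PSME3 was below this mean in WT depends on the exon lengths.

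Among assembly chaperones no gene passed by edgeR. PSMD9, a chaperone of the base, had the highest log2 fold change of any member, 1.79 ± 0.52 SE (edgeR adjusted p = 0.0617), on few counts: 49 and 20 in WT and 269 and 126 in d27, or 5.56 and 2.07 against 14.6 and 11.7 CPM. DESeq2 called it higher (log2 1.80, adjusted p = 0.0154), and its value ranged from 1.27 without WT replicate 2 to 2.71 without WT replicate 1. In GENCODE 29, 19.9% of its exon bases lie in same-strand exons of other genes, CFAP251 among them. The other base chaperones did not pass. PSMD10 had 17.4 and 15.4 CPM in WT and 18.4 and 23.5 in d27 (log2 0.35 ± 0.30), and PSMD5 had 25.4 and 17.6 against 31.9 and 22.4 CPM (log2 0.34). Of the 4 chaperones of the core particle, PSMG3 had 23.6 and 23.0 CPM in WT and 37.6 and 41.4 in d27 (log2 0.76 ± 0.26, edgeR adjusted p = 0.0947). PSMG4, its partner, had 23.0 and 19.4 against 11.1 and 11.0 CPM (log2 -0.94 ± 0.30, edgeR adjusted p = 0.0809). PSMG1 and PSMG2, the other pair, had 12.9 and 13.8 against 8.25 and 9.73 CPM and 13.7 and 10.9 against 9.87 and 11.9 CPM. PSMG3 and PSMG4 were the 2 of these 4 with an unadjusted p under 0.05, and DESeq2 called neither.

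Levels of different genes were compared per kilobase of exon (the union of annotated exons in GENCODE 29). By the mean over the 4 libraries the order was led by PSME1 (98.8 ± 37.2 CPM per kb, SD over 4 libraries), PSMD2 (75.6 ± 21.6), PSME3 (72.8 ± 33.4), PSMA7 (66.2 ± 22.5) and PSMC3, an ATPase (61.9 ± 12.6), and neighbours in this order differed by less than their spread. By exon length the order was not the same in both groups. PSME1 led in WT, with 130 and 132 CPM per kb against 55.8 and 36.3 for PSME3, and PSME3 led in d27, with 112 and 87.1 against 66.9 and 66.2 for PSME1. In WT replicate 1 the lead of PSME1 over PSME3 depends on exon length, 1781 bases against 5152. Their coding lengths are 750 and 801 bases. In CPM, WT replicate 1 had 231 for PSME1 and 288 for PSME3, and WT replicate 2 had 235 and 187. At the other end of the detected genes stood PSMA2 (0.550 ± 0.369), PSMD9 (0.966 ± 0.649) and PSMB10 (1.17 ± 0.36). With coding length in place of exon length, a setting added after the data were seen, PSME3 ranked first, PSME1 second and PSMC3 13th, and the ranks of the 48 genes had a Spearman rho of 0.887 with the first order. PSMF1 per kilobase of exon was 0.446 and 0.316 times the mean of the 3 constitutive catalytic genes in WT and 1.56 and 1.25 times in d27. With coding length PSMF1 moved from rank 16 to rank 6, while PSMB7, PSMB5 and PSMB6 moved from 11, 15 and 22 to 17, 26 and 33. Exon lengths are 5296 bases for PSMF1 and 1765, 1448 and 1787 for PSMB5, PSMB6 and PSMB7. The coding lengths are closer, 813 bases beside 789, 717 and 831. Whether PSMF1 stood below the catalytic genes in WT at all thus depends on the length used.

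**Figure D3:**
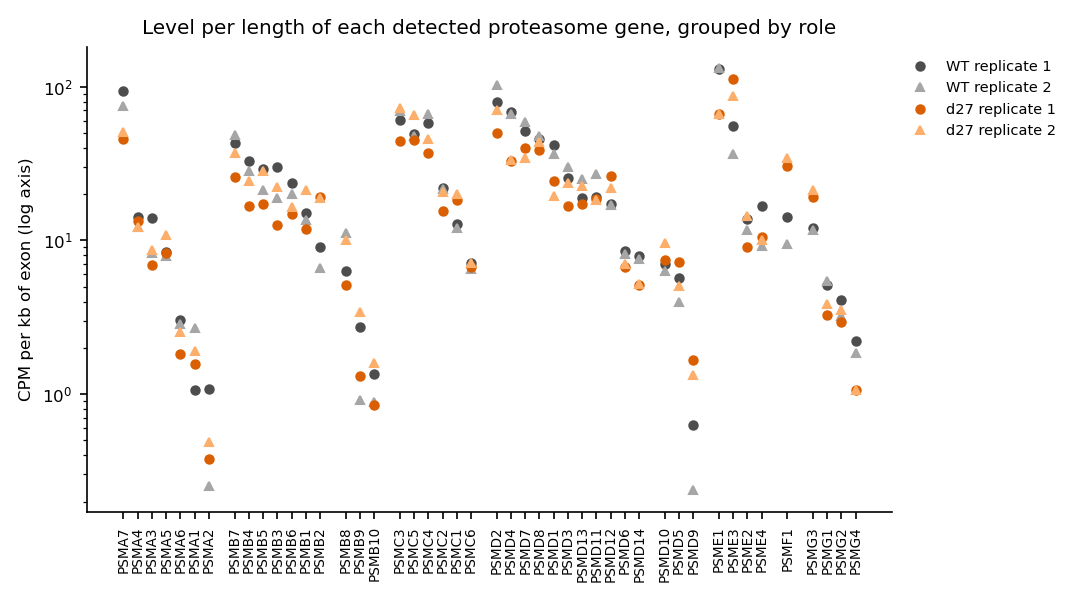
The level per length of each of the 46 detected proteasome genes (CPM per kb of exon, log axis) is shown in each library, grouped by role in the order alpha, constitutive beta, tissue-specific beta, ATPases, other cap subunits, base chaperones, activators, PSMF1 and core chaperones. The 4 libraries of a gene mostly lie close together beside the spread between genes, and PSMF1 has d27 points above both WT points.

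Exon length and GC content had weak rank correlations with the fold changes of the members, yet an offset for both moved those fold changes. Across the 46 tested members, which share the 4 libraries, log2 fold change had a Spearman rho of 0.17 with exon length and -0.10 with GC content, beside -0.062 and -0.051 across 14815 tested genes with annotation. Members had a median exon length of 3564.5 bases and a median GC content of 48.9%, beside 4707 bases and 49.0% for all. An offset for GC content and exon length moved the median of the members from -0.20 to -0.41, beside -0.083 for all genes. Of the 46 members 6 then passed as lower, beside 1012 of all 14909 genes tested.

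Genes that act with the proteasome but lie outside the symbol rule were taken from a list of 38, all of them tested. By edgeR 7 rose, 2 fell and 29 did not pass, which is 18.4% higher and 5.26% lower, beside 8.00% and 3.70% of all tested genes. DESeq2 called 9 of the 38 higher and 3 lower. Its background was larger, with 1719 higher and 1112 lower among 12173 genes given an adjusted p. The median log2 fold change was 0.23, beside -0.00043 for all. The list was chosen with earlier results of these data known, so these shares are a description.

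Among the 18 genes for assembly factors and proteasome-bound proteins, 4 rose and 1 fell. That is 22.2% higher and 5.56% lower, beside 8.00% and 3.70% of all tested genes. MIDN encodes midnolin, which brings nuclear proteins to the proteasome without ubiquitin, among them products of immediate early genes. It had 159 and 116 CPM in WT and 580 and 504 in d27, a 3.94-fold rise (log2 1.98 ± 0.27 SE, edgeR adjusted p = 0.00991). AKIRIN2, which carries assembled proteasomes into the nucleus, rose from 53.2 and 28.9 to 147 and 174 CPM (log2 1.97 ± 0.33, adjusted p = 0.0147). FBXO7, a ubiquitin ligase subunit that binds PI31, the product of PSMF1, rose from 42.4 and 40.7 to 94.2 and 107 CPM (log2 1.27 ± 0.24, adjusted p = 0.0192). ZFAND2A, a stress-inducible proteasome-binding protein, rose from 13.2 and 15.6 to 35.4 and 33.2 CPM (log2 1.25 ± 0.28, adjusted p = 0.0320). ECPAS, which clamps the cap to the barrel, fell from 288 and 452 to 129 and 165 CPM (log2 -1.33 ± 0.30, adjusted p = 0.0322). The subunits outside the symbol rule did not pass: ADRM1, a ubiquitin receptor, had 121 and 183 CPM in WT and 123 and 183 in d27, and SEM1, a small lid subunit, had 36.8 and 31.4 against 11.3 and 23.7. POMP, which matures the beta ring, had 77.3 and 62.3 against 49.1 and 34.7 CPM (adjusted p = 0.123).

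Of 8 shuttle and extraction factors 3 rose, and each of the 8 had d27 libraries wholly on one side of WT, beside 8.00% of all tested genes called higher and 61.2% without overlap. UBQLN4, a ubiquilin that ferries ubiquitin-tagged proteins, had 168 and 142 CPM in WT and 432 and 354 in d27 and rose (log2 1.34 ± 0.25 SE, edgeR adjusted p = 0.0195). RAD23B, a shuttle with the same task, rose from 254 and 237 to 527 and 435 CPM (log2 0.97 ± 0.25, adjusted p = 0.0442). VCP, the ATPase that pulls proteins out of complexes and membranes, had 484 and 482 CPM in WT and 253 and 274 in d27 and did not pass (log2 -0.88 ± 0.24, adjusted p = 0.0520). RAD23B did not pass when WT replicate 2 was left out (adjusted p = 0.104), without d27 replicate 1 (0.234), with library totals (0.0583) and with the offset for GC and exon length (0.0785). ECPAS was lost without WT replicate 2 (0.0739) and without d27 replicate 1 (0.111), and ZFAND2A without d27 replicate 1 (0.145).

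**Figure D4:**
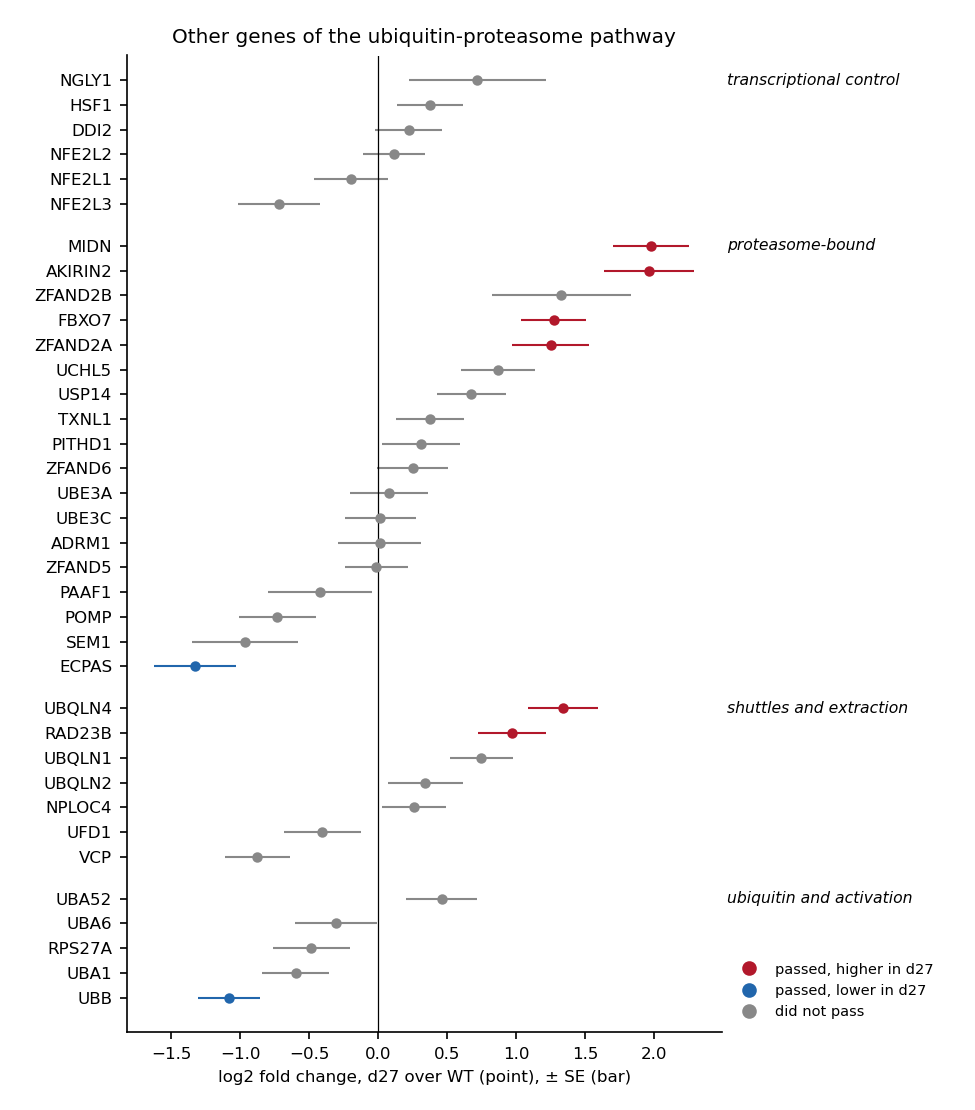
The log2 fold change of d27 over WT (x axis), with bars for the standard error, is drawn for the other genes of the pathway, 2 of the 38 left out, grouped by role and sorted within each group. MIDN and AKIRIN2 are at 1.98 and 1.97, ECPAS at -1.33 and UBB at -1.08, and these 4 passed.

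Of 6 genes for ubiquitin and its activation, UBB, a polyubiquitin gene, had 217 and 229 CPM in WT and 105 in each d27 library and fell (log2 -1.08 ± 0.22 SE, edgeR adjusted p = 0.0261), a call lost without d27 replicate 1 (0.108) or d27 replicate 2 (0.0637). The 1 of 6 called lower is 16.7%, beside 3.70% of all tested genes. UBB consists of ubiquitin repeats, so its reads may align to several places and be left out. Of 6 genes that control proteasome transcription, none passed by edgeR or DESeq2, and 1, NFE2L3, had an unadjusted p under 0.05. NFE2L1 had 406 and 552 CPM in WT and 401 and 434 in d27, and NFE2L2, which encodes the related factor NRF2, had 124 and 139 against 138 and 147. These are levels of mRNA in the precipitates and say nothing of the amount or activity of the factors.

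**Figure D5:**
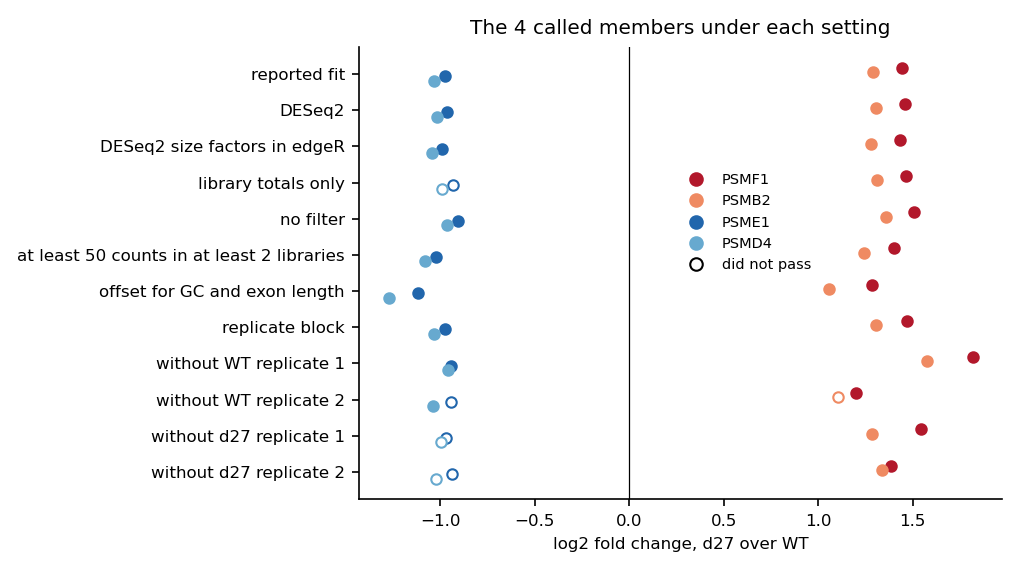
The log2 fold change of the 4 called proteasome genes (x axis) is drawn under the reported fit and 11 alternatives (rows), with an open circle where the adjusted p was 0.05 or more. PSMF1 passed in every row, PSMB2 in all but 1, and PSMD4 and PSME1 kept their sign in every row while losing the call in 3 and 4 of the 11 alternatives.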

How the data were processed

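The submitters' processing notes name HTSeq, DESeq2 and the GRCh38 build; the aligner, annotation release, strand setting and tool versions were not given in the sources used here. Each library has 1 deposited table of raw read counts per gene. HTSeq's summary entries, 25.9% to 47.6% of each table's total, entered neither library sizes nor tests. Gene symbols were looked up by Ensembl identifier (60419 of 60719 genes), and positions, exon lengths and GC content from GENCODE 29 (58444 genes). Counts were normalized by TMM, filtered with filterByExpr by group (minimum count 10, minimum total 15) and tested with edgeR 4.0.16 in R 4.3.3 (glmQLFit, robust, glmQLFTest, group alone), with Benjamini-Hochberg adjustment over all 14909 genes tested and a threshold of 0.05. Standard errors were derived from the F statistic of each gene. Shares were compared by an exact permutation test (scipy 1.17.1). The test was tried on simulated counts.

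The labels do not say whether replicates came from separate cultures, so p-values reflect only how these libraries vary, possibly for technical reasons. Intervals and the floor of 3 counts cover counting error only. Genes with full statistics were the called members, the 2 with the lowest p in each role and the called genes of the 38-gene list. The values of 2 genes of that list are not reported here, though its counts include them. Members and lists were chosen with earlier results of these data known. Alternatives were DESeq2 1.42.0, its size factors, library totals, no filter, at least 50 counts in at least 2 libraries, an offset for GC and exon length (mgcv 1.9.3), a replicate block and leaving out each library.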

Additional observations from a re-analysis of the deposited data

How the results depend on the processing

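The count of all genes called, 1743, became 2831 with DESeq2, 2862 with no filter, 3575 with a replicate block, and between 768 and 4851 with a library left out. Members called higher, 2 in the reported fit, became 4 with DESeq2, with no filter and with at least 50 counts in at least 2 libraries, and 6 with the replicate block; leaving out a library gave 1 to 4. PSMF1 was among them in every fit. In either direction DESeq2 called 17.8% of the members, beside 23.3% of all genes given an adjusted p. With at least 50 counts it was 18.2% beside 20.7%, and with library totals 4.35% beside 7.87%. The settings with a share above that of all genes are given in the Results. Members called lower, also 2, became 4 with DESeq2 and with at least 50 counts, 6 with the offset for GC and exon length, 6 with the replicate block and 0 with library totals (5 at an unadjusted p under 0.05, edgeR); leaving out a library gave 0 to 2, with 0 without d27 replicate 1 or 2, where 3 and 4 had an unadjusted p under 0.05. Of the 38 pathway genes, the 7 higher became 11 with the replicate block and 4 to 11 with a library left out, and the 2 lower became 4 with the offset, 5 with the block and 0 to 3 with a library left out (without d27 replicate 1, 3 of them had an unadjusted p under 0.05). The labels do not say that a replicate number marks a shared batch, and deviations of same-numbered libraries from their group means had r = 0.096, so the numbers were not taken as a pairing. Log2 CPM over the tested genes correlated at r = 0.928 between the WT libraries and 0.963 between the d27 libraries. With d27 replicates 1 and 2, WT replicate 1 had 0.918 and 0.930, and WT replicate 2 had 0.866 and 0.887. WT replicate 1 was thus about as close to d27 replicate 2 as to WT replicate 2.

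The difference in the members' share of counts changed sign when a library was left out, with a range of -0.066 to 0.021 percentage points. Signs also changed for KIF5A (-0.57 to 0.40), PSMB8 (-0.74 to 0.27) and PSMB9 (-0.45 to 1.40), with values of 0.40 for KIF5A, 0.27 for PSMB8 and -0.20 for PSMB9 without WT replicate 2, 0.22 for PSMB8 without d27 replicate 1 and -0.45 for PSMB9 without d27 replicate 2. Among the 29 other members the sign differed from the reported one in 29 of 317 values, and the subgroup medians of the ATPases (-0.27 to 0.12), the activators (-0.45 to 0.11) and the immunoproteasome genes (-0.45 to 0.53) crossed 0. The median over the members was below 0, and below the median over all genes, in all 11 alternatives, though by little without d27 replicate 1 (-0.069 beside -0.053). It was -0.44 without d27 replicate 2 and -0.41 with the offset, both larger in size than the replicate SD of 0.33. With 2 libraries per group, precision is limited most for members under about 10 CPM, such as PSMA1, PSMA2, PSMB10 and PSMD9.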

Other observations

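Processed pseudogenes of proteasome subunits carried few reads. The tables listed 44 genes named as a pseudogene of one of 17 members, of which 21 had any count and 3 passed the filter on low counts. Together they had 108 and 104 counts in WT and 194 and 96 in d27, 502 in all, beside 183512 for the 48 members. PSMC1 had the most, 13 pseudogenes with 347 counts, 7.202% of its own count. Those of PSMA6 came to 6.39% and those of PSME2 to 4.47%. HTSeq sets aside reads that align to several places, so the members with near-identical copies may be undercounted by an amount these tables do not give.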
